A study of Mus musculus with 6 samples.

Results

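The 199 mirtron-type 5p strands described here are the miRNAs with a miR number from 6896 to 7094 and a name ending in -5p, out of 1831 miRNAs in the deposited table. The rule used only the number and the strand, so neither sequence nor level entered the choice. One-colour Agilent arrays had measured them in the small intestine of 3 littermates (labelled wildtype) and 3 Cdr1as-/- mice (labelled cdr1as knockout), 1 array per mouse. Per the methods of the study, the tissue was the mucosa, the Cdr1as locus had been removed in embryos with Cas9 and guide RNAs, and the strain was kept on a pure C57BL/6J background. The labels name no treatment, age or sex. The methods also state that animals had water but no food for a time before experiments, without naming the array mice. Cdr1as itself is a circular RNA and was not analysed here, so the genotype labels were not checked against it. Arrays of separate mice served as replicates, and 3 per group limits the precision of every value below.

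Mirtrons are short introns that fold into a hairpin once they have been spliced out and their lariat has been opened. The canonical route to a miRNA runs through the Drosha-containing Microprocessor in the nucleus and then through Dicer in the cytoplasm. Mirtrons bypass Drosha, because the spliceosome defines 1 or both ends of the hairpin, and Dicer then cuts out the duplex. The 5p strand comes from the side of the splice donor and the 3p strand from the side of the splice acceptor, which ends in AG. In tailed mirtrons only one end of the hairpin coincides with an intron end, and the remaining tail is trimmed. Most mirtron products are present at low levels in tissues, and the function of few of them is known.

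Most of the hairpins ended in AG, as introns do, and few began with GU. RefSeq (GRCm38.p6) held the mature sequence of 175 of the 199 members and a hairpin for 172 of them, 173 hairpins in all, since miR-6967-5p has 2 loci. Of these hairpins, 161 (93.1%) ended in AG, against 77 of 832 other mouse hairpins (9.25%). A start with GU was found in 25 hairpins (14.5%), against 52 of the others (6.25%). In 171 of the 173 (98.8%) the hairpin lay inside the bounds of a protein-coding gene, against 481 of the 832 others (57.8%). The 5p strand began at base 1 of the hairpin in 22 and at base 6 in 136. The hairpins with the 5p at base 1 included the hairpins of all 8 members that both start with GUGAG and have a hairpin entry. Exon and intron positions within these genes were not analysed here, and the strand of the gene was not compared with that of the hairpin.

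A pair of hairpins shows both places of the 5p strand, which is in capitals, and both end in AG. In the first, at chr13:55477681-55477776 on the minus strand within the bounds of Dbn1, the 5p strand begins at base 1 with the donor-like GUGAG. In the other, at chr7:24970010-24970075 on the minus strand within the bounds of Rabac1, it begins at base 6.
miR-6944: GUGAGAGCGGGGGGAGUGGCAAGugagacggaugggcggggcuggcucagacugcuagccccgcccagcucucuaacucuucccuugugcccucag
miR-7046: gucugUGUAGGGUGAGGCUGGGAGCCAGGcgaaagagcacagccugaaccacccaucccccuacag

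The 5p strands were rich in G. The median share of G was 44.0% over the 199 members (range 13% to 66.7%), 28.6% over the 581 other 5p strands and 14.3% over the 176 3p strands of the same numbers. C had the reverse order, with medians of 13.6%, 18.2% and 40.9%. A run of 4 G (GGGG) occurred in 76 members (38.2%), in 63 other 5p strands (10.8%) and in 2 of the 3p strands (1.14%). GUGAG stood at base 1 of 10 members (5.03%) and of 4 other 5p strands (0.688%), and GUAAG and GUGGG stood there in 1 and 2 members. Over bases 1 to 6 the 3 motifs were found in 11, 2 and 10 members. U was the commonest first base, in 94 members (47.2%). The members were 18 to 26 bases long with a median of 22.

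The G extended into the seed, bases 2 to 8, with which a miRNA recognises its targets. Of the 199 seeds, 170 held 3 or more G, against 511 of the 1632 other miRNAs. The members had 176 different seeds. 41 members shared theirs with another member, in 18 groups of at most 4, and 52 had a seed that a miRNA outside the range also had. The largest group, of 4, shared GUGGGAG. 3 of its members are shown because they carry the same seed (in capitals), and the levels of these miRNAs are set against each other further on. miR-6935-5p is the remaining one.
miR-6922-5p: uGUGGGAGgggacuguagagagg
miR-6993-5p: aGUGGGAGaaacgggugucuguc
miR-7008-5p: uGUGGGAGaugccaggagccguac

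The mature sequences of the members on which the values below turn follow, again with the seed in capitals. miR-7028-5p, miR-7046-5p and miR-6939-5p had high values in 1 littermate. miR-6964-5p, miR-6948-5p and miR-6995-5p were the members with the smallest p among those lower in Cdr1as-/- mice, and miR-7005-5p was the one among those higher. miR-6931-5p and miR-7045-5p had the highest share of G, and miR-7092-5p and miR-6902-5p the lowest.
miR-7028-5p: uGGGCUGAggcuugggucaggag
miR-7046-5p: uGUAGGGUgaggcugggagccagg
miR-6939-5p: cAGGCAGCugguugguggaag
miR-7069-5p: uUGGGGGCcugggagggugacac
miR-6964-5p: uUGGGGUGugagacuggaaac
miR-6948-5p: aGUUCAGAcaggacugugacac
miR-6995-5p: cUGGGAGUagaagggggaaacca
miR-7005-5p: cCUGGGGAugggaggaccagca
miR-6931-5p: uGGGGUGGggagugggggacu
miR-7045-5p: aGCGGGUGggggagggggacu
miR-7092-5p: aAAGGCAAacucacagaaucauu
miR-6902-5p: uUCCUCACauugucacaugaag

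The array of littermate 3 stood apart from the others and is named wherever a value rests on it. Before any scaling, the median processed signal of the members' brightest probes was 19.2, 23.4 and 1180 in littermates 1 to 3 and 103, 25.8 and 34.0 in Cdr1as-/- mice 1 to 3. The brightest probe was well above background in 184, 195 and 199 members in the littermates and in 199, 131 and 196 members in the Cdr1as-/- mice. For the other miRNAs, median signals in the same array order were 11.8, 14.5, 301, 38.8, 19.4 and 14.8. Littermate 3 was thus brightest for them too. Shares of other miRNAs well above background were 82.6%, 97.9%, 100%, 99.9%, 52.9% and 91.8%. Those of the members were 92.5%, 98%, 100%, 100%, 65.8% and 98.5%. Hence Cdr1as-/- mouse 2 left the fewest miRNAs measurable, inside and outside the set. Littermate 3 and Cdr1as-/- mouse 1 left all members measurable and nearly all or all other miRNAs. The arrays of the 3 littermates and of Cdr1as-/- mouse 1 were on slide 1, and those of Cdr1as-/- mice 2 and 3 were on slide 2. Markers of the tissue moved on the array of littermate 3 as well. All 8 miRNAs of intestinal epithelium (the miR-192, miR-194, miR-215 and miR-200 families) were well above background on all 6 arrays, and their summed level, as a log2 value, was 17.17, 17.16 and 16.04 in the littermates and 17.05 to 17.16 in the Cdr1as-/- mice. The sum over 4 miRNAs of smooth muscle and mesenchyme was 11.19, 11.08 and 7.01 in the littermates and 9.99 to 12.52 in the Cdr1as-/- mice. The sum over 5 immune miRNAs was 12.34, 12.41 and 9.11 in the littermates and 11.89 to 12.65 in the Cdr1as-/- mice. The sum over 2 erythroid miRNAs was 10.06, 8.20 and 5.78 in the littermates and 7.42 to 8.11 in the Cdr1as-/- mice. A sum is led by its most abundant miRNAs. Taken over single miRNAs, the median difference of littermate 3 from the mean of littermates 1 and 2 was -2.96 for epithelium, -3.66 for muscle and mesenchyme, -3.40 for immune and -2.78 for erythroid miRNAs, so that all 4 lists lay lower on this array. Neither of the 2 neural miRNAs was well above background on all 6 arrays, and their sum was between 4.42 and 4.87 on every array. In such bulk tissue, fewer cells of a type and less RNA per cell cannot be told apart. With 1 array per mouse, neither can be told from a difference of the array itself. The part of these shifts in the values of the members was not tested.

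Littermates 1 and 2 agreed closely over the members, and the other 4 arrays did not move as their labels group them. Unless another scaling is named, the values from here on are log2 values of the authors' deposited normalized table. The difference between littermates 2 and 1 had an SD of 0.26 over the 199 members. Against the mean of littermates 1 and 2, the median difference over the 199 members was 0.81 in littermate 3 (quartiles 0.33 and 1.6), 0.43 in Cdr1as-/- mouse 1 (0.09 and 0.83), -0.06 in Cdr1as-/- mouse 2 (-0.23 and 0.16) and 0.31 in Cdr1as-/- mouse 3 (0.10 and 0.51). Thus the littermate that stood apart and Cdr1as-/- mouse 1 lay highest, and Cdr1as-/- mouse 2 lay with littermates 1 and 2. The members above that mean numbered 171 (85.9%), 164 (82.4%), 89 (44.7%) and 164 (82.4%) in the same order. Over the 1632 other miRNAs the medians were 0.31, 0.10, 0.04 and -0.04, with 63.2%, 56.3%, 53.3% and 47.0% above the mean. The members therefore lay higher than the other miRNAs on 3 of these 4 arrays, with no account taken here of their higher share of G.

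**Figure D1:**
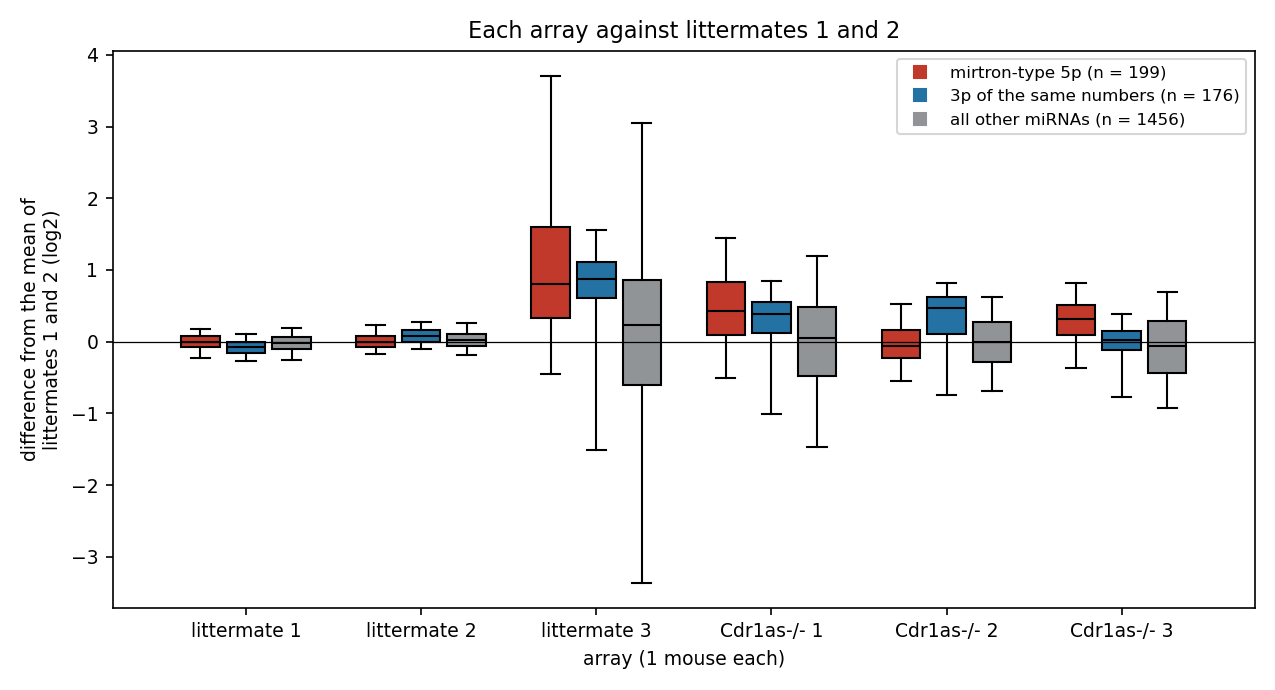
Difference of each array from the mean of littermates 1 and 2 (log2, vertical axis) for 199 mirtron-type 5p strands, the 176 3p strands of the same numbers and 1456 other miRNAs. Boxes span the quartiles with the median as a line, and whiskers the 5th to 95th percentiles. The 5p strands lie highest in littermate 3, with a median of 0.81, and at -0.06 in Cdr1as-/- mouse 2, where the 3p strands lie at 0.47.

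The order of the arrays held for the members that were measured well. Over the 131 members well above background on all 6 arrays, the medians were 0.97 in littermate 3 and 0.55, -0.04 and 0.36 in Cdr1as-/- mice 1 to 3, beside 0.55, 0.25, 0.08 and 0.04 over the 851 other miRNAs measured as well. The 78 members listed with high confidence in the deposited table had medians of 0.72, 0.38, -0.15 and 0.36, and the other 121 had 0.87, 0.49, -0.03 and 0.29. With the scanner signal scaled to the 75th percentile of the probes detected on all arrays, the medians over the 199 members were 1.06, 0.27, 0.13 and 0.21. With the 75th percentile of all probes they were 0.63, 0.32, -0.03 and 0.21, and with quantile normalization 0.81, 0.36, -0.01 and 0.30. The members' median in Cdr1as-/- mouse 2 changed sign between these scalings, and those of the other 3 arrays did not. Medians of the other miRNAs were 0.09, -0.55, 0.14 and -0.34 with the percentile of detected probes. With that of all probes they were -0.33, -0.50, -0.02 and -0.34, and with quantile normalization 0.17, -0.03, 0.04 and -0.09. The gap between members and others was thus wider than with the deposited values in littermate 3 and in Cdr1as-/- mice 1 and 3.

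The 3p strands of the same hairpins did not follow the 5p strands. In 172 hairpins with both strands in the table, the median differences of the 5p and 3p strands were 0.80 and 0.88 in littermate 3 and 0.42 and 0.38 in Cdr1as-/- mouse 1. They were -0.06 and 0.47 in Cdr1as-/- mouse 2, and 0.33 and 0.03 in Cdr1as-/- mouse 3. The strands thus lay close together on the first pair of these arrays and apart, in opposite order, on the second. The 5p strand lay above its 3p strand in 86 hairpins (50%) in littermate 3, in 100 (58.1%) and 40 (23.3%) in Cdr1as-/- mice 1 and 2, and in 134 (77.9%) in Cdr1as-/- mouse 3. Within a hairpin the differences of both strands were hardly related, with Spearman's rho over the 172 hairpins between -0.16 and 0.01 on these 4 arrays. This is a description across hairpins that share an array, a scaling and a reference mean.

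The difference from littermates 1 and 2 was larger in members with more G on 3 of the 4 arrays. In littermate 3 the median difference was 0.30 over the 30 members with up to 35% G, 0.63 over 34 members with over 35% and up to 40%, 0.87 over 36 with up to 45%, 0.87 over 57 with up to 50%, and 1.57 over 42 with over 50%. In Cdr1as-/- mouse 1 the medians in the same order were 0.13, 0.22, 0.48, 0.55 and 0.85. In Cdr1as-/- mouse 3 they were 0.08, 0.17, 0.35, 0.40 and 0.40. Cdr1as-/- mouse 2 showed no such order, with medians between -0.08 and 0.01. Spearman's rho with the share of G over the 199 members was 0.345 in littermate 3 and 0.362, -0.00354 and 0.316 in Cdr1as-/- mice 1 to 3.

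The other miRNAs of the table had nearly the same relation to G. Their medians from the lowest to the highest share of G were 0.16, 0.64, 0.90, 1.43 and 1.79 in littermate 3, 0.01, 0.33, 0.42, 0.70 and 0.77 in Cdr1as-/- mouse 1, and -0.14, 0.24, 0.28, 0.38 and 0.41 in Cdr1as-/- mouse 3, over 1260, 149, 87, 84 and 52 miRNAs. In Cdr1as-/- mouse 2 they stayed between -0.05 and 0.05. Spearman's rho over the 1632 other miRNAs was 0.365, 0.356, 0.0251 and 0.460. The widest gap between members and others at over 35% G was the one in littermate 3 at over 45% and up to 50% (0.87 and 1.43), and most other miRNAs (1260 of 1632) had no more than 35% G. At each share over 35% G the members lay below the others in littermate 3. In Cdr1as-/- mice 1 and 3 they lay above the others at some of these shares and below at others. At up to 35% G the members lay above the others on each of these arrays. What produced the relation to G was not tested. Runs of G gave less of a contrast. In littermate 3 the median was 1.01 over the 76 members with GGGG and 0.79 over the 123 without. In Cdr1as-/- mouse 1 it was 0.51 and 0.39, in mouse 2 -0.06 and -0.05, and in mouse 3 0.30 and 0.35.

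**Figure D2:**
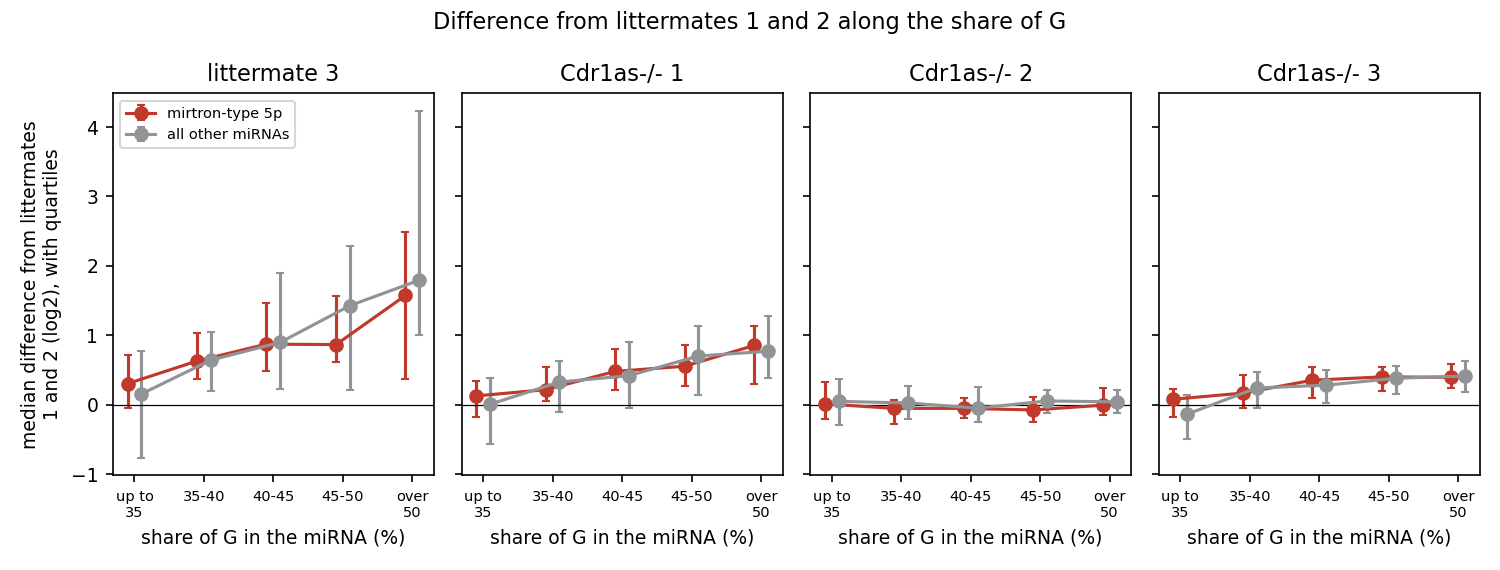
Median difference of an array from the mean of littermates 1 and 2 (log2, vertical axis) by share of G in the miRNA (horizontal axis, percent), for mirtron-type 5p strands and all other miRNAs. Bars span the quartiles. In littermate 3 the members' median goes from 0.30 to 1.57 and that of the other miRNAs from 0.16 to 1.79. In Cdr1as-/- mouse 2 the members' median stays between -0.08 and 0.01 and that of the others between -0.05 and 0.05.

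Individual members show the size of the shift in littermate 3. miR-7028-5p, whose hairpin lies at chr5:114719515-114719578 within Tchp, read 8.53 and 8.15 in littermates 1 and 2, 14.49 in littermate 3, and 10.78, 8.78 and 8.90 in Cdr1as-/- mice 1 to 3. Littermate 3 was thus 70.7-fold above the mean of the other littermates, and Cdr1as-/- mouse 1 was the next highest. miR-7046-5p, whose hairpin is given above, read 8.15, 7.80 and 13.70 in the littermates and 10.33, 8.5 and 8.41 in the Cdr1as-/- mice. miR-6939-5p, whose hairpin lies at chr12:112659277-112659351 within Akt1, read 7.68, 7.28 and 13.02 in the littermates and 9.48, 7.94 and 7.78 in the Cdr1as-/- mice. These 3 members were farthest above littermates 1 and 2 on that array, by 6.14, 5.73 and 5.53, and all 5 probes of each gave that direction.

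At the other end, 3 members were lowest in littermate 3. miR-6964-5p was 1.61 below, miR-6948-5p 1.59 below and miR-7056-5p 1.58 below the mean of littermates 1 and 2. miR-7056-5p read 7.34, 7.27 and 5.73 in the littermates and 6.36, 7.23 and 6.88 in the Cdr1as-/- mice. Its share of G was 50%, that of miR-6964-5p 42.9% and that of miR-6948-5p 27.3%, so a high share of G did not go with a high value in every member.

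Extremes of G gave the same picture. miR-6931-5p, with 66.7% G, read 7.01, 7.12 and 10.99 in the littermates and 7.54, 6.98 and 7.42 in the Cdr1as-/- mice. miR-7045-5p, also with 66.7% G, read 7.59, 7.81 and 10.34 in the littermates and 7.98, 7.62 and 8.25 in the Cdr1as-/- mice. Both were far higher in littermate 3 than on any other array, while their Cdr1as-/- values overlapped those of littermates 1 and 2. miR-7092-5p, with 13% G, read 3.78, 4.04 and 3.58 in the littermates and 3.54, 4.01 and 3.73 in the Cdr1as-/- mice, with no array standing apart. miR-6902-5p, with 13.6% G, read 5.80, 5.66 and 7.76 in the littermates and 6.40, 6.33 and 5.79 in the Cdr1as-/- mice. Despite its low share of G, littermate 3 was again the highest.

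A shared seed did not go with a shared pattern. miR-6922-5p (hairpin within Srebf1) read 7.53, 7.50 and 9.25 in the littermates and 8.41, 7.63 and 7.92 in the Cdr1as-/- mice. miR-6993-5p (within Fads1) read 4.41, 4.36 and 3.72 in the littermates and 3.83, 3.51 and 4.24 in the Cdr1as-/- mice. miR-7008-5p (within Prkci) read 3.61, 4.05 and 4.37 in the littermates and 3.75, 3.52 and 4.19 in the Cdr1as-/- mice. Each Cdr1as-/- mouse lay above littermates 1 and 2 for the first and below them for the second, and the values of the third overlapped. miR-6935-5p read 3.93, 4.18 and 4.55 in the littermates and 4.49, 4.72 and 3.99 in the Cdr1as-/- mice, which overlapped too. In the last 3, the brightest probe was well above background in only 2 of the 3 Cdr1as-/- mice. The seed of miR-7028-5p, GGGCUGA, is also that of miR-6911-5p and miR-7079-5p, named here after their values had been seen. miR-6911-5p was 2.07 and miR-7079-5p 0.23 above littermates 1 and 2 in littermate 3.
miR-6911-5p: uGGGCUGAgugggucuguggcau
miR-7079-5p: aGGGCUGAggcagugaguccug

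Members that open with the donor-like GUGAG were a small set of 10, of which 9 were tested. Against littermates 1 and 2, 9 of the 10 were higher in littermate 3 (median 1.6), 9 in Cdr1as-/- mouse 1 (0.81), 4 in Cdr1as-/- mouse 2 (-0.05) and all 10 in Cdr1as-/- mouse 3 (0.44). Over all 199 members the shares above that mean were 85.9%, 82.4%, 44.7% and 82.4%, with medians of 0.81, 0.43, -0.06 and 0.31. Over the 42 members with over 50% G the medians were 1.57, 0.85, -0.01 and 0.40, close to those of the members opening with GUGAG. The parts of the start and of the share of G in these values were not tested. The 5 with the smallest p in the comparison without littermate 3 are miR-6944-5p, given above, and the following.
miR-7018-5p: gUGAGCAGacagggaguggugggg
miR-7068-5p: gUGAGGCUcaguauggggugg
miR-6974-5p: gUGAGGCAgcaagagauugggggu
miR-6977-5p: gUGAGGCGcugugggcacggcuugg

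miR-7018-5p, at chr4:137538286-137538370 within Hspg2, read 9.54, 9.58 and 12.69 in the littermates and 10.91, 9.59 and 10.20 in the Cdr1as-/- mice. miR-7068-5p, within Cherp, read 8.5, 8.46 and 10.72 in the littermates and 9.68, 8.47 and 9.13 in the Cdr1as-/- mice. miR-6974-5p, within Lta, read 8.13, 8.05 and 11.14 in the littermates and 9.32, 8.10 and 8.42 in the Cdr1as-/- mice. In each of the 3, Cdr1as-/- mouse 2 was level with littermates 1 and 2 and the other Cdr1as-/- mice were above. miR-6977-5p, within Ptprs, read 5.62, 5.84 and 6.69 in the littermates and 6.57, 5.64 and 6.33 in the Cdr1as-/- mice, with the same order of Cdr1as-/- mice 1 and 2.

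The 5p strands of 3 mirtrons outside the number range had the same 2 arrays highest. miR-1224-5p, which also opens with GUGAG and holds 61.9% G, read 10.83, 10.80 and 14.32 in the littermates and 12.11, 10.97 and 10.95 in the Cdr1as-/- mice. miR-877-5p read 7.61, 7.57 and 9.90 in the littermates and 8.54, 7.58 and 7.95 in the Cdr1as-/- mice. miR-702-5p read 6.30, 6.33 and 7.47 in the littermates and 6.71, 6.25 and 6.45 in the Cdr1as-/- mice. All 3 were highest in littermate 3 and next highest in Cdr1as-/- mouse 1. This was not particular to mirtrons, and all 3 hold over 50% G. Over all other miRNAs with over 50% G the median differences were 1.79 in littermate 3 and 0.77, 0.04 and 0.41 in Cdr1as-/- mice 1 to 3. Of their 3p strands, miR-1224-3p was 0.76 above and miR-702-3p 1.17 below littermates 1 and 2 in littermate 3, and miR-877-3p was not tested.
miR-1224-5p: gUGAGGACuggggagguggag
miR-877-5p: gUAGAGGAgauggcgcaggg
miR-702-5p: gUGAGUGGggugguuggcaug

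The question of the study, whether loss of Cdr1as changes miRNA levels in the mucosa, was put to the members first without littermate 3, so 3 Cdr1as-/- mice against 2 littermates. The fit was made with limma over the 1529 miRNAs with a clear signal (the brightest probe marked well above background by the scanner software) throughout at least 1 of the groups, and 183 of the 199 members were among them. At p below 0.05 without adjustment, Cdr1as-/- mice had lower values of 3 members and higher values of 1. These were 1.64% and 0.546% of the members tested, beside a background over all miRNAs tested of 182 lower (11.9%) and 27 higher (1.77%). The t-test of the study's methods called 3 members lower (1.64%, background 8.11%) and 5 higher (2.73%, background 2.22%). The difference between members and table was not tested. The balance of the members' calls turned with the scaling of the scanner signal. The 75th percentile of detected probes gave 0 members lower and 7 higher, that of all probes 1 and 8, quantile normalization 1 and 5, and a floor under dim signals 0 and 4. Shares over all miRNAs were not counted under these scalings, so whether the whole table turned likewise is not known here. By neither test did any member or other miRNA pass an adjusted p (Benjamini-Hochberg) of 0.05, and the smallest adjusted limma p among the members was 0.254. The median difference was 0.25 over the members tested and 0.11 over all miRNAs tested, with 145 members (79.2%) and 57.5% of all miRNAs above 0. Over all 199 members without a filter the median was also 0.25. The 3p strands of the same numbers had a median of 0.31 over the 146 tested, with 80.8% above 0.

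miR-6964-5p, whose hairpin lies at chr16:97877233-97877291 within C2cd2, had the smallest p among the members. It read 6.67 and 6.61 in littermates 1 and 2, against 5.20, 6.08 and 5.82 in Cdr1as-/- mice 1 to 3, so that the groups did not overlap. The difference was -0.94 ± 0.30 (SE, unadjusted limma p = 0.0133, adjusted p = 0.254, exact permutation p = 0.2). In littermate 3 it read 5.03, below all 3 Cdr1as-/- mice. Of 16 alternatives in scaling, filter, test and mice, 6 ended this call: both percentile scalings, the floor, the t-test of the methods and the omission of littermate 1 or of littermate 2.

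miR-6948-5p, at chr14:54643084-54643105 within Acin1, read 5.53 and 5.47 in littermates 1 and 2, against 4.44, 4.92 and 4.89 in the Cdr1as-/- mice. These groups did not overlap either, and the difference was -0.75 ± 0.25 (SE, unadjusted limma p = 0.0169, adjusted p = 0.254, exact permutation p = 0.1). Littermate 3 read 3.91, again below every Cdr1as-/- mouse. This call was lost under 7 of the 16 alternatives, namely all 5 other scalings and without littermate 1 or 2.

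miR-6995-5p, at chr19:47273519-47273589 within Sh3pxd2a, read 8.25 and 7.84 in littermates 1 and 2, against 6.89, 7.87 and 6.98 in the Cdr1as-/- mice. Cdr1as-/- mouse 2 overlapped the littermates, and the difference was -0.80 ± 0.34 (SE, unadjusted limma p = 0.0451, adjusted p = 0.36, exact permutation p = 0.3). Littermate 3 read 8.01, between the other littermates. Of the 16 alternatives, 12 ended this call, all other scalings among them.

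miR-7005-5p, at chr2:180179755-180179823 within Lama5, was the only member higher at that p. It read 6.90 and 6.98 in littermates 1 and 2, against 8.61, 7.82 and 7.13 in the Cdr1as-/- mice, without overlap. The difference was 0.91 ± 0.40 (SE, unadjusted limma p = 0.0489, adjusted p = 0.364, exact permutation p = 0.2), and 4 of its 5 probes gave that direction. Littermate 3 read 6.67, so here the array that stood apart was the lowest. Its call was lost under 9 of the 16 alternatives, with quantile normalization, the floor, the t-test of the methods or without littermate 1 or 2 among others, and held under both percentile scalings.

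Members next in order did not pass the threshold. On the lower side, miR-6993-5p differed by -0.52 ± 0.28 and miR-7042-5p by -0.58 ± 0.31 (SE). miR-7042-5p read 8.09, 7.80 and 6.45 in the littermates and 6.93, 7.88 and 7.30 in the Cdr1as-/- mice, which overlapped. On the higher side, miR-6944-5p differed by 0.83 ± 0.37, miR-6989-5p by 0.54 ± 0.25, miR-7028-5p by 1.14 ± 0.55 and miR-7046-5p by 1.1 ± 0.54 (SE). miR-6944-5p read 7.01, 6.91 and 9.32 in the littermates and 8.53, 7.62 and 7.22 in the Cdr1as-/- mice. miR-6989-5p, whose hairpin lies within Map4k2, read 6.21, 6.24 and 7.96 in the littermates and 7.08, 6.54 and 6.67 in the Cdr1as-/- mice. In both, all 3 Cdr1as-/- mice were above littermates 1 and 2, and littermate 3 was above all of them.

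**Figure D3:**
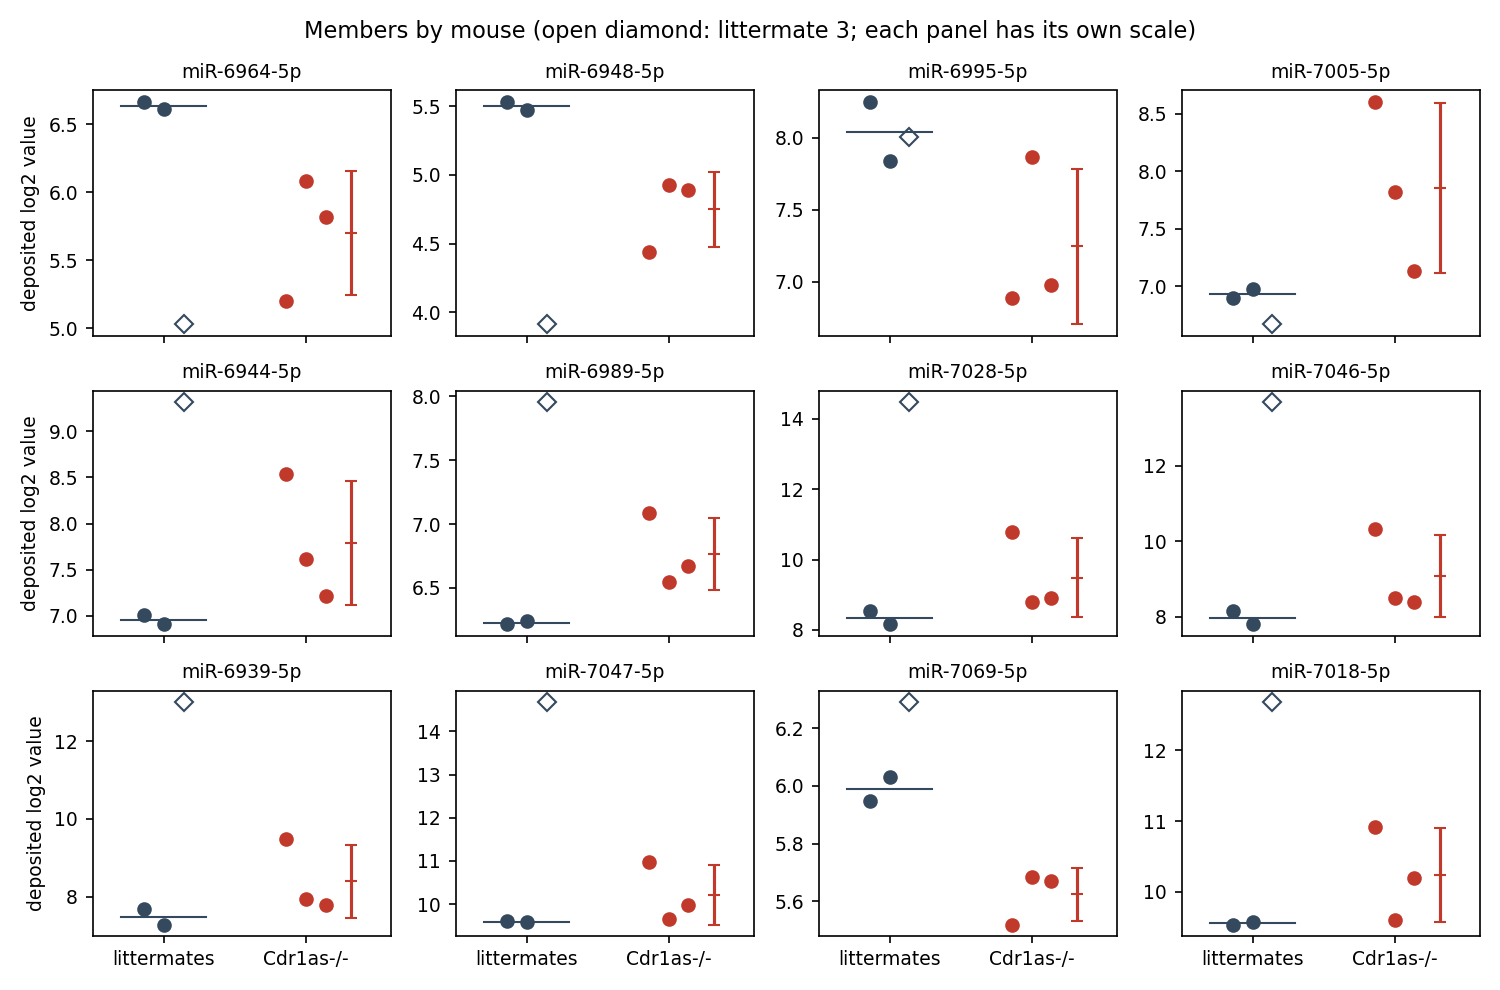
Deposited log2 values (vertical axes, each with its own scale) of 12 members in 6 mice. Filled points are littermates 1 and 2 (dark) and Cdr1as-/- mice 1 to 3 (red, left to right), the open diamond is littermate 3, the line is the mean of littermates 1 and 2, and the bar is the mean ± SD of the 3 Cdr1as-/- mice. Littermate 3 is the highest of the 6 mice in 8 of the 12 panels, at 14.49 for miR-7028-5p.

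Many more members were called once Cdr1as-/- mouse 2 was left out too. With 2 mice a group, 8 members passed p below 0.05 without adjustment as lower and 61 as higher (33.3% of those tested), against a background of 310 lower (20.3%) and 276 higher (18.1%). At an adjusted p below 0.05, 2 members were lower and 9 higher (4.92%), against 164 (10.7%) and 33 (2.16%) over all miRNAs. Within slide 1 the comparison rested on Cdr1as-/- mouse 1 and littermates 1 and 2, since slide 2 held Cdr1as-/- mice only. There 6 members passed that p as lower and 58 as higher (background 18.7% and 17.8%), and 2 were lower and 26 higher at an adjusted p below 0.05 (13.4% and 8.31%), with a median difference of 0.47. These p-values compare a single Cdr1as-/- mouse, with a spread taken from the other arrays. The median over the members was 0.42 without Cdr1as-/- mouse 2 and 0.16 without Cdr1as-/- mouse 1. The count of higher calls was 0 without Cdr1as-/- mouse 1 and 5 without mouse 3, so that it depended on which Cdr1as-/- mouse was in the fit. Shares over all miRNAs were not counted for either of these fits, so whether the whole table moved likewise is not known here.

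Members whose groups did not overlap were counted against the background. All 3 Cdr1as-/- mice were above littermates 1 and 2 in 43 of the 183 members (23.5%), against 323 of all 1529 miRNAs (21.1%). They were below both in 11 members (6.01%), against 341 miRNAs (22.3%). The first share was thus close to that of the table and the second below it, and neither difference was tested. For a single miRNA, an exact two-sided permutation test over these 5 mice, on the size of the difference in means, cannot give a p under 0.1.

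With all 6 arrays, as the labels group them, 0 members passed p below 0.05 without adjustment as lower and 1 as higher (limma), against a background of 4 lower (0.262%) and 2 higher (0.131%). The unpaired t-test named in the study's methods, on the same values, called 1 member lower (background 1.11%) and 0 higher (0.131%), and no member passed an adjusted p of 0.05 in either test. The median difference was -0.09 over the members and -0.07 over all miRNAs, with 29.5% of members and 39.1% of all miRNAs above 0. The sign of the members' median thus turned with littermate 3, and it turned back, to 0.01, when Cdr1as-/- mouse 2 was left out, and to 0.06 within slide 1. All 3 Cdr1as-/- mice were above all 3 littermates in 1 member (0.546%, background 0.458%) and below them in 3 (1.64%, background 2.49%).

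The member higher with all 6 arrays was again miR-7005-5p, with a difference of 1.0 ± 0.41 (SE, unadjusted limma p = 0.0498, adjusted p = 1, exact permutation p = 0.1). This call was lost under 13 of the 16 alternatives. miR-6995-5p differed by -0.79 ± 0.34 (SE, unadjusted limma p = 0.0609, exact permutation p = 0.2), close to its value without littermate 3. For miR-6964-5p and miR-6948-5p the differences shrank to -0.40 ± 0.53 and -0.22 ± 0.49 (SE), with littermate 3 the lowest of the 6 mice in both. The latter turned to 0.0188 when scaled by the 75th percentile of all probes. Hence miR-7005-5p and miR-6995-5p were the called members whose values depended least on that array.

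**Figure D4:**
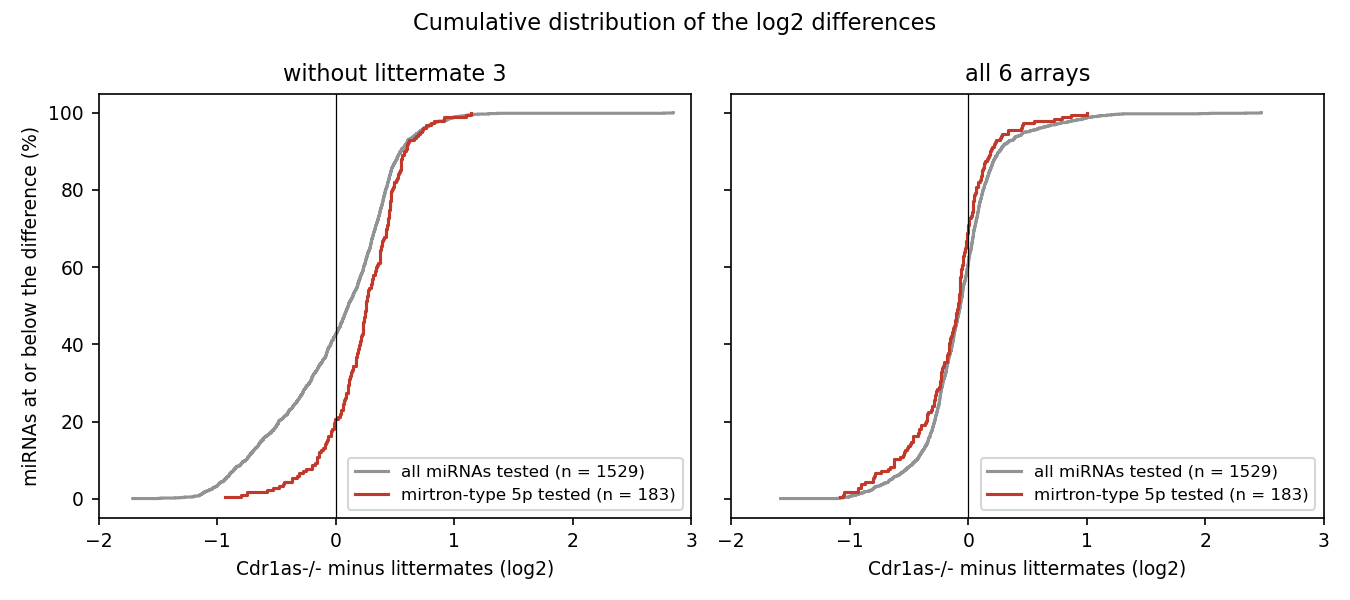
Cumulative share of miRNAs (vertical axis, percent) at or below each log2 difference between Cdr1as-/- mice and littermates (horizontal axis), for 183 mirtron-type 5p strands and all 1529 miRNAs tested. Without littermate 3 the members lie to the right of the table, with a median of 0.25 against 0.11, and with all 6 arrays both lie near 0, at -0.09 and -0.07.

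The 5p strands of 3 hairpins are given because the study names their 3p strands. miR-7069-5p, at chr8:84867947-84868008 within Farsa, read 5.95, 6.03 and 6.29 in the littermates and 5.52, 5.68 and 5.67 in the Cdr1as-/- mice. All 3 Cdr1as-/- mice were below all 3 littermates, and the difference was -0.47 ± 0.23 (SE, unadjusted limma p = 0.09, adjusted p = 1, exact permutation p = 0.1, the smallest that 6 mice allow). With the 75th percentile of detected probes and of all probes it was -0.788 and -0.683. Without littermate 3 the difference was -0.36 ± 0.23 (SE). Its 3p strand read 5.14, 5.14 and 3.00 in the littermates and 3.20, 3.33 and 3.74 in the Cdr1as-/- mice.

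miR-7047-5p read 9.61, 9.58 and 14.69 in the littermates and 10.98, 9.66 and 9.99 in the Cdr1as-/- mice. All 3 Cdr1as-/- mice were above littermates 1 and 2, by 0.62 ± 0.38 (SE, unadjusted limma p = 0.139, exact permutation p = 0.2), and below littermate 3. Its 3p strand ran the other way, at 5.92, 5.83 and 3.29 in the littermates and 4.47, 4.79 and 5.0 in the Cdr1as-/- mice. With all 6 arrays the 5p difference was -1.08 ± 1.42 (SE). The size of both depended on the scaling. With the 75th percentile of detected probes and of all probes the difference was 0.353 and 0.315 without littermate 3, and -0.271 and -0.167 with all 6 arrays. miR-7039-5p, within Smurf1, was well above background in 2 mice of each group and was not tested. It read 2.80, 3.09 and 3.97 in the littermates and 3.51, 2.69 and 3.33 in the Cdr1as-/- mice, which overlapped.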

How the data were processed

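Total RNA, 100 ng per mouse, was labelled with Cy3 and hybridised per the labels. The authors' scanner software (Agilent Feature Extraction 11.0.1.1) wrote the deposited intensity of each spot with the local background subtracted, without scaling between arrays. The deposited miRNA table gives a normalized log2 value per mouse, and the normalization is not given in the sources used here. Its remaining columns, the authors' fold change as a ratio and a log2, their p-values and q-value, and −log10 p, were not used. Each of the 1831 values was matched to its probes (8437 probes, within 0.0002), which gave the detection flags. A miRNA was tested when its brightest probe carried the scanner's flag for a signal well above background throughout a group.

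Differences (Cdr1as-/- minus littermates) of the deposited log2 values were tested by lmFit and eBayes of limma 3.58.1 (R 4.3.3), adjusting p after Benjamini and Hochberg across the 1529 miRNAs, with and without littermate 3. On simulated data the fit without littermate 3 recovered 80% of changes of log2 1 at an unadjusted p of 0.05 and 33% after adjustment, over 1529 miRNAs, and the fit of all 6 arrays 58% and 0.0%. The simulated noise was independent between miRNAs and held no shift shared across an array, so these shares need not hold for the data. Sequences, coordinates and gene bounds are those of RefSeq (GRCm38.p6). The slides come from the scanner files. Named members were the 5 with the smallest p in each direction without littermate 3, the 5p strands of 3 hairpins whose 3p strands the study names, the 3 farthest above and below in littermate 3, the 2 highest and lowest in G, the largest seed group and 5 starting with GUGAG. Members, lists and tests were chosen with earlier results of these data known. Positions and sequences are reported for part of the members, and 24 members had no RefSeq entry.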

Additional observations from a re-analysis of the deposited data

How the results depend on the processing

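Counts of members called rested on few mice. Without littermate 3 (3 lower, 1 higher), the scanner signal scaled by the 75th percentile of detected probes gave 0 lower and 7 higher members at an unadjusted p below 0.05, by that of all probes 1 and 8, quantile normalization 1 and 5, normexp with quantile normalization 1 and 6, and a floor 0 and 4. No filter gave 4 higher, the t-test of the study's methods 5, and the slide as a block 6 lower and 58 higher, with 28 past the adjusted p. Leaving out 1 mouse at a time gave 0 to 8 lower, 0 to 61 higher, and 0 to 11 past the adjusted p, where the highest numbers came without Cdr1as-/- mouse 2. With the replicate number as a block 11 members were higher. Beside the main fits, shares over all miRNAs were counted only for the t-test, the slide block and the fits without Cdr1as-/- mouse 2. The other counts in this section thus have no background. The deviations of same-numbered mice from their group means had correlations of -0.787, 0.589 and -0.240. Littermate 3 weighs on the deviations of all 3 littermates, so these correlations cannot show whether the numbers pair the mice.

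With all 6 arrays (0 lower, 1 higher), 0 members were higher under both percentile scalings, quantile normalization, the floor, the restriction to miRNAs detected on all arrays, the t-test of the methods, an intensity trend in limma and the replicate number as a block. The t-test called 1 member lower, miR-7069-5p. Leaving out 1 mouse at a time gave 0 to 1 lower and 0 to 5 higher. The difference of miR-6948-5p turned to 0.0188 with the percentile of all probes and to 0.000482 with normexp, and lay between -0.31 and 0.06 with 1 mouse left out. The cause was not tested. The members' median kept its sign without littermate 3 (0.09 to 0.47). Of 383 values of single members under these alternatives, 4 changed sign. The restriction to miRNAs well above background on all arrays left 3 members lower and 1 higher without littermate 3, and 3 arrays a group limit the precision.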
